A study of Mus musculus with 10 samples.

Results

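The genes described here encode the nuclear subunits of the mitochondrial respiratory chain, complexes I to IV, and of ATP synthase, often called complex V. They were chosen by symbol from a table of gene values: protein-coding genes with Nduf followed by a subunit letter and number, the genes Sdha to Sdhd, those that begin with Uqcr or Atp5, the complex IV subunit names, and Cyc1. Symbols of pseudogenes were dropped. This gave 84 gene identifiers of the 55573 in the table, with 83 symbols, because Atp5o has 2 identifiers. Complex I has 35 of them, complex II 4, complex III 9, complex IV 18 and complex V 18, with Ndufa4 and Ndufa4l2 counted in complex IV because the NDUFA4 protein is a subunit of that complex.

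The RNA came from bone marrow-derived macrophages of female wild-type C57BL/6 mice, whose age is not given in the sources used. The cells were grown in DMEM with 10% FBS and 50 ng/mL MCSF, and all 5 groups, of 2 libraries each, were collected after 4 h. Vehicle cells were the controls. PolyU cells received 5 µg of a uridine homopolymer, a ligand of the receptor TLR7, carried by the lipid DOTAP. PNPi+dG/rG cells received 1 µM ulodesine, which blocks purine nucleoside phosphorylase, together with 5 µM deoxyguanosine (dG) and 5 µM guanosine (rG). PNPi+dG/rG+polyU cells received both treatments and are called the combination. The fifth group received R848, a small molecule that activates TLR7, at 1 ng/mL. In the labels, DOTAP is named only with polyU, and no group is given the lipid alone. Effects of polyU and of DOTAP therefore cannot be told apart, in the polyU group or in the combination. The labels call the libraries of a group biological replicates, but do not say whether they came from separate animals or cultures, so p-values here measure the spread between libraries.

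Complex I takes electrons from NADH and complex II takes them from succinate, and both hand them through ubiquinone to complex III, from which cytochrome c carries them to oxygen at complex IV. Complexes I, III and IV move protons across the inner mitochondrial membrane as they do so, and ATP synthase uses their return to make ATP. Macrophages activated through Toll-like receptors come to rely more on glycolysis, while succinate oxidation by complex II and electron flow back through complex I become sources of reactive oxygen species that act as signals.

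Of the 84 identifiers, 78 reached 1 CPM in at least 2 libraries and were tested, where CPM is the deposited unit, reads on a gene scaled to the reads on all genes of a library. All members of complexes I, II and III passed, with 13 of 18 in complex IV and 17 of 18 in complex V. The 6 that did not pass were mostly forms known from other tissues. Cox6b2, a testis form of a complex IV subunit, lay between 0 and 0.492 CPM. Ndufa4l2, a hypoxia-induced relative of Ndufa4, lay between 0 and 0.159 CPM, with its highest values in the R848 libraries. Cox7b2, Cox8b, Cox8c and the second Atp5o identifier were listed at 0 in all 10 libraries.

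Levels were compared between genes per kilobase of the principal transcript. In vehicle, the median of the 78 members was 50.0 CPM per kb, with quartiles of 33.3 and 73.7. The highest were the catalytic beta subunit of ATP synthase, Atp5b, at 397 CPM per kb, and its alpha partner, Atp5a1, at 248. Cox6a1, a small subunit of complex IV, followed at 215 CPM per kb. By complex, the medians were 39.1 CPM per kb for complex I, 75.5 for II, 57.6 for III, 70.4 for IV and 64.3 for V. No member of complex I reached 100 CPM per kb, while 10 members of the other complexes did.

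Many of these transcripts are short and have near copies elsewhere in the genome, often as pseudogenes. Of the 84 members, 38 had every 50-base window of their exons in no other gene, 29 had under 90% of such windows and 5 had under 50%. Of the 10 tested members under 10 CPM per kb, 6 were among those under 90%. In the c-ring of ATP synthase, 3 genes encode the same mature subunit c, and Atp5g3 stood at 168 CPM per kb with all windows unique, Atp5g2 at 1.84 with 12.6% unique and Atp5g1 at 0.482 with 88.4% unique. Their principal transcripts are 723, 731 and 4715 bases, so the low value of Atp5g1 per kb also rests on a long transcript. Atp5l, a membrane subunit, had 15.2% unique windows and 4.33 CPM per kb. How reads that fit several genes were counted is not given in the sources used, so a low value of such a gene may be an undercount, and the part of shared sequence in these levels was not tested.

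**Figure D1:**
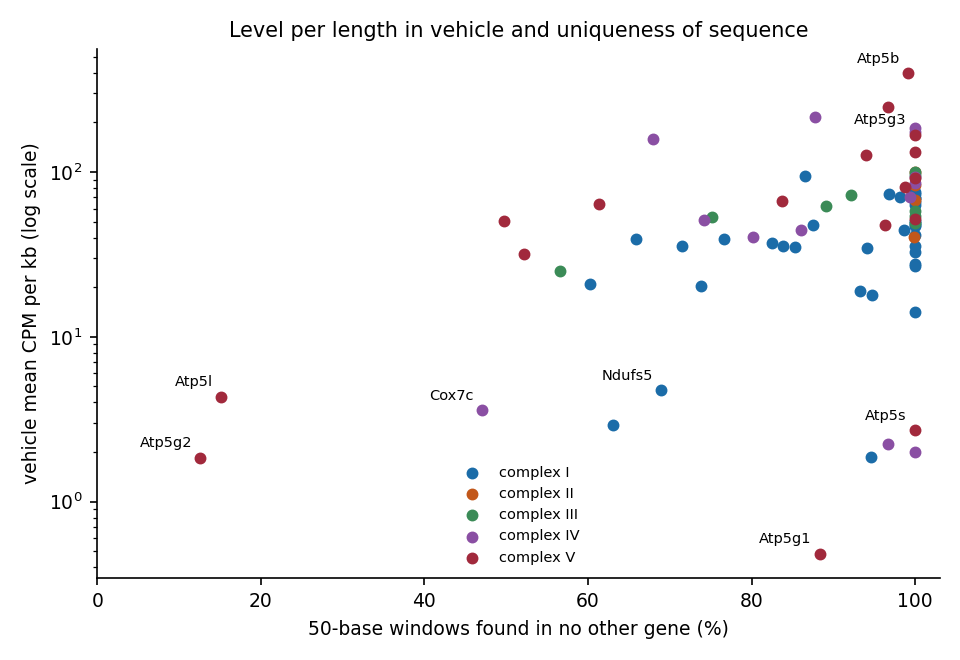
Each point is a tested member, with the share of its 50-base windows found in no other gene on the horizontal axis (%) and its mean level in the 2 vehicle libraries on the vertical axis (CPM per kb of transcript, log scale). Atp5b is highest at 397 CPM per kb, while Atp5g2, Atp5l and Cox7c combine under 50% unique windows with levels under 10 CPM per kb.

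Summed over all 84, the members took 5336 and 5654 CPM in vehicle, 6490 and 6837 with polyU, 5804 and 5557 with PNPi+dG/rG, 6015 and 6136 with the combination and 4177 and 4406 with R848. Vehicle and PNPi+dG/rG libraries overlapped, the polyU libraries were the highest, those of the combination lay between vehicle and polyU, and the R848 libraries were the lowest. Of the 78 tested members, 64 had their highest group mean with polyU and 72 their lowest with R848, and 59 had the mean of the combination between those of vehicle and polyU. These orders were not counted over all genes tested. Of those genes, limma called 62.9% lower with R848 and 20.6% higher with polyU, at an adjusted p under 0.05. The comparisons with vehicle share its 2 libraries, so they are not independent.

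CPM is a share of each library, so other genes bear on it. Over the 11978 tested genes together the median with R848 was -0.50 in log2, and with the combination it was -0.22, against 0.02 with polyU and 0.02 with PNPi+dG/rG. When every library was instead set to the same median over tested genes, called centring here, this moved every log2 fold change by 0.59 with R848 and by 0.21 with the combination. It moved those of the combination against polyU by 0.25, against R848 by -0.38 and of the interaction by 0.29.

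With polyU, 60 of 78 members were called higher at an adjusted p under 0.05 in limma and 0 lower, where 20.6% of all genes tested were called higher and 18.7% lower. At an unadjusted p under 0.05 there were 64 higher and 0 lower, and voom on recovered reads also gave counts of 60 and 0. For the 7 comparisons, its counts over all 78 members differed from those of limma by 3 at most and were 0 wherever limma gave 0. Within complex IV, voom called 1 lower in the interaction, where limma called 0. The median member changed by 0.35 in log2, a 1.27-fold difference, and 75 of the 78 lay above the median of all genes. The rise was seen in each complex: 31 of 35 in complex I, 3 of 4 in complex II, 8 of 9 in complex III, 6 of 13 in complex IV and 12 of 17 in complex V. The medians were 0.45, 0.21, 0.37, 0.27 and 0.31. Centred values gave 56 higher and 0 lower, or 71.8% of members against 17.2% of all genes higher. The count was 41 without polyU 2, 45 without vehicle 1 and 62 at most when another library was left out.

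These members are also short, and short genes as a whole were higher with polyU. The median length of the principal transcript was 863 bases for the members and 2960 for the 11971 tested genes with a length. Among genes under 1000 bases, the median log2 fold change with polyU was 0.43 for 45 members and 0.34 for 799 genes in all. Of those members 77.8% were called higher, and of those genes 43.9%. Among genes of at least 1000 bases, it was 0.30 for 33 members and 0.00 for 11172 genes, with 75.8% and 18.9% called higher. The rank correlation of length with the log2 fold change was -0.38 across the 78 members and -0.44 across all genes, which are not independent. The part of transcript length in the rise with polyU was not tested.

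**Figure D2:**
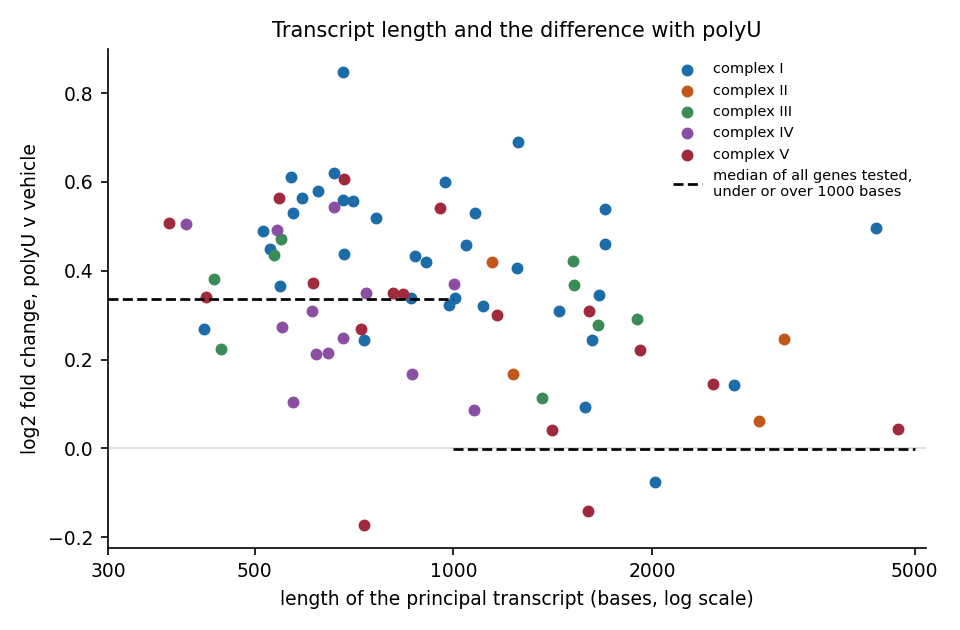
Each point is a tested member, with the length of its principal transcript in bases on the horizontal axis (log scale) and its log2 fold change of polyU against vehicle on the vertical axis. The dashed lines are the medians of all genes tested, 0.34 under 1000 bases and 0.00 at or above it.

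PNPi+dG/rG alone called 0 of 78 members in either direction in limma, where 0.409% of all genes were higher and 0.392% lower. At an unadjusted p under 0.05 there were 2, both higher and both in complex I, Ndufb7 and Ndufs4. At that threshold, 563 of the 11978 genes tested were higher and 513 lower. voom on recovered reads also called 0. The median of the members was 0.05, or 0.02 after centring. These 2 libraries held more reads than those of any other group.

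With the combination, 39 of 78 members were called higher and 4 lower, where 22.2% of all genes were higher and 46.7% lower. The median was 0.21 against -0.22 for all genes, and 75 members lay above the median of all genes. After centring, 65 were higher and 0 lower, with a median of 0.42, so the 4 calls of a fall do not hold on that scale, where 33.2% of all genes were higher and 33.2% lower. The 4 were Sdha, Ndufv3, Ndufa10 and Atp5g2. The count lower was 2 without vehicle 2 and 2 without combination 2. Complex I had 20 higher and 2 lower (median 0.30), complex II 0 higher and 1 lower (-0.01), complex III 5 higher (0.21), complex IV 6 higher (0.19) and complex V 8 higher and 1 lower (0.17). For complex II, the 0 higher in limma came with 0 at an unadjusted p under 0.05, 0 by voom and 2 after centring. Among genes under 1000 bases, the median with the combination was 0.30 for members and 0.16 for all genes, and among longer ones it was 0.11 and -0.25. The part of length was not tested here either.

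With R848, 64 of 78 members were lower and 0 higher in CPM by limma, where 62.9% of all genes were lower and 19.2% higher, yet after centring 44 were higher (56.4%) and 4 lower, where 43.0% of all genes were higher and 34.65% lower. At an unadjusted p under 0.05, 64 were lower and 0 higher, and voom called 63 and 0. The median member changed by -0.37 in CPM, which is 0.13 above the -0.50 of all genes, and by 0.22 after centring, a reversal. With libraries scaled on their upper quartile, 5 were higher and 24 lower, with a median of -0.09. On that scale the falls of Atp5g3, Cyc1, Ndufv1 and Uqcrfs1 were no longer called, and Atp5b and Cox7a2l turned positive. The share of the RNA taken by these genes therefore fell, while most of them fell less than the median gene. Only Atp5s was called with at least a 2-fold difference, where 39.2% of all genes were. In bulk RNA, fewer cells of a type and less RNA per cell cannot be told apart.

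For R848, the values are given here by complex, where 62.9% of all genes were called lower and the median of all genes was -0.50. All 4 genes of complex II were lower, with a median of -0.65 in CPM and -0.05 after centring. Complex I had 30 of 35 lower with a median of -0.39, or 0.21 after centring. Complex III had 8 of 9 lower with -0.38, or 0.21 after centring. Complex V had 14 of 17 lower with -0.34, or 0.25. Complex IV had 8 of 13 lower with -0.23, or 0.36. Differences between complexes were not tested.

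**Figure D3:**
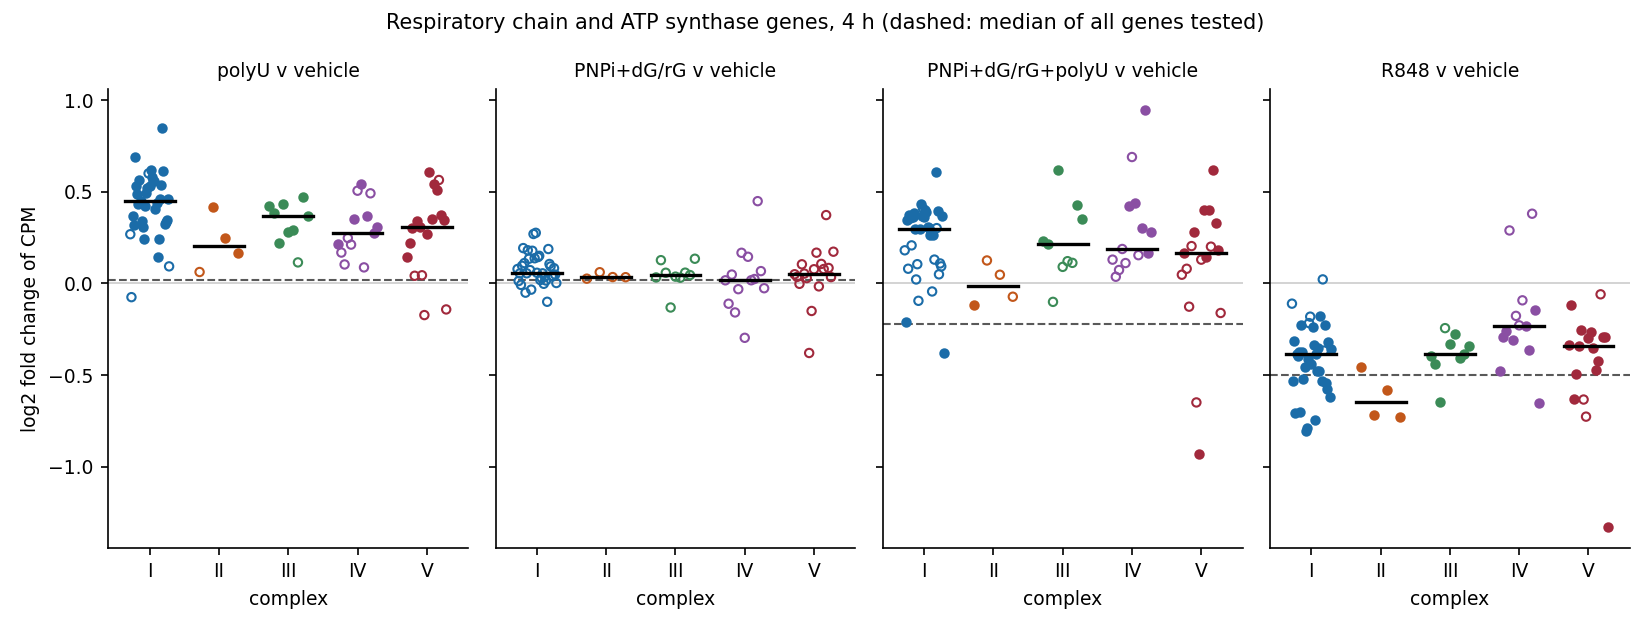
Each point is a tested member, placed by complex, with its log2 fold change of CPM against vehicle on the vertical axis; filled points are called at an adjusted p under 0.05, bars are medians of a complex and the dashed line is the median of all genes tested. With polyU the 5 medians lie between 0.21 and 0.45, and with R848 between -0.65 and -0.23 around the all-gene median of -0.50, so that after centring 4 of those 5 turn positive.

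Adding PNPi+dG/rG to polyU left 31 of 78 members lower and 0 higher in CPM by limma, where 47.5% of all genes were lower and 15.8% higher, but after centring 17 were higher (21.8%) and 1 lower, where 30.1% of all genes were higher and 25.3% lower. At an unadjusted p under 0.05, 34 were lower and 0 higher, and voom called 32 and 0. The median was -0.16 in CPM against -0.24 for all genes, and 0.09 after centring, a reversal. The count was 18 without polyU 2 and 18 without combination 1. The interaction, which asks whether PNPi+dG/rG acts differently with polyU than without it, was called lower for 27 members and higher for 0 in limma, against 38.9% and 11.8% of all genes, whereas after centring it was higher for 7 (8.97%) and lower for 0, where 24.1% of all genes were higher and 17.0% lower. At an unadjusted p under 0.05 it was lower for 35 and higher for 0, and by voom for 30 and 0. Its median was -0.22 in CPM against -0.27 for all genes, and 0.06 after centring, also a reversal. The 27 became 14 without vehicle 1, 11 without polyU 2, 10 without PNPi+dG/rG 1 and 13 without combination 1, and 1 member was higher without vehicle 1. No member of complex IV was called in either comparison by limma, with 0 and 2 at an unadjusted p under 0.05 and 0 and 1 by voom, all lower, and with 7 and 2 higher after centring.

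The combination and R848 both contain a TLR7 ligand, but the members differed between them. Against R848, 72 of 78 members were higher with the combination and 0 lower in limma, where 53.9% of all genes were higher and 16.9% lower. At an unadjusted p under 0.05, 73 were higher and 0 lower, and voom called 71 and 0. The median was 0.61 against 0.31 for all genes. After centring, 42 were higher and 2 lower, with a median of 0.23, where 28.4% of all genes were higher and 37.5% lower. Among genes under 1000 bases, the median was 0.62 for members and 0.57 for all genes, or 0.24 and 0.19 after centring. Of those members 91.1% were called higher in CPM, and of those genes 64.3%. Among longer ones, the median was 0.59 and 0.29, or 0.21 and -0.09 after centring. The part of length was not tested in this comparison. The members with at least a 2-fold difference were Ndufa5, Ndufb8, Ndufb11 and Atp5s, so 4 of 78, where 20.7% of all genes were called at that size. By complex, 34 of 35 were higher in complex I, 4 of 4 in II, 9 of 9 in III, 10 of 13 in IV and 15 of 17 in V.

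Complex I has core subunits encoded in the nucleus, which hold its flavin and iron-sulfur clusters, and many accessory subunits around them. Ndufv2 (ENSMUSG00000024099, chr17:66078638-66101559 on GRCm38) encodes a subunit of the NADH-binding module with an iron-sulfur cluster. It had 56.5 and 64.5 CPM in vehicle, 85.1 and 80.95 with polyU, 65.6 and 59.3 with PNPi+dG/rG, 78.1 and 77.9 with the combination and 36.4 and 42.2 with R848. The polyU and combination libraries were above both vehicle libraries, the R848 libraries were below all others, and the PNPi+dG/rG libraries overlapped vehicle. In log2 the difference was 0.46 (SE 0.08, adjusted p = 3.20e-04) with polyU and 0.37 (SE 0.08, adjusted p = 7.77e-04) with the combination, or 0.58 after centring. R848 gave -0.62 (SE 0.08, adjusted p = 3.34e-06) in CPM and -0.03 after centring, which was no longer called.

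Ndufs1, the largest core subunit and a carrier of iron-sulfur clusters, had 91.97 and 92.8 CPM in vehicle, 102 and 102 with polyU, 95.7 and 93.8 with PNPi+dG/rG, 86.4 and 92.9 with the combination and 65.4 and 67.5 with R848. Both polyU libraries were slightly above all others and those of R848 far below. Its rise with polyU was 0.14 (SE 0.05, adjusted p = 0.0416). That call was lost without vehicle replicate 1 (adjusted p = 0.134), vehicle replicate 2 (adjusted p = 0.0904), polyU replicate 1 (adjusted p = 0.103), polyU replicate 2 (adjusted p = 0.11), PNPi+dG/rG replicate 1 (adjusted p = 0.0644) or PNPi+dG/rG replicate 2 (adjusted p = 0.0642), and with no filter (adjusted p = 0.0963), plain eBayes (adjusted p = 0.0649) or only the groups compared (adjusted p = 0.0861), and also after centring, at 0.10. With R848, Ndufs1 fell by 0.48 in CPM (adjusted p = 4.53e-07) but was higher by 0.12 after centring.

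Ndufv1, also a core gene, encodes the subunit that carries the flavin that accepts electrons from NADH, and Ndufs3, Ndufs7 and Ndufs8 lie on the path from there to quinone. Their log2 fold changes with polyU were 0.34, 0.46, 0.32 and 0.34, all called. The call for Ndufs3 was lost without polyU replicate 2 (adjusted p = 0.0542) and that for Ndufs7 without vehicle replicate 1 (adjusted p = 0.0617). None of the 4 was called with the combination in limma, with values between 0.05 and 0.13 with 0 at an unadjusted p under 0.05 and 0 by voom, though after centring all 4 were higher. With R848 they were -0.32, -0.53, -0.54 and -0.58 in CPM, all called lower, and 0.27, 0.06, 0.05 and 0.02 after centring.

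Among the accessory subunits, Ndufs4 (ENSMUSG00000021764, chr13:114287795-114388258), which is needed to complete the NADH-binding module, rose most with the combination. It had 24.5 and 23.5 CPM in vehicle, 34.1 and 35.7 with polyU, 27.6 and 27.1 with PNPi+dG/rG, 35.6 and 37.7 with the combination and 23.8 and 24.9 with R848. The polyU and combination libraries were well above the other groups, and the R848 libraries overlapped vehicle. The log2 fold changes were 0.54 (SE 0.07, adjusted p = 2.93e-05) with polyU and 0.61 (SE 0.07, adjusted p = 2.08e-06) with the combination, or 0.82 after centring, and 0.02 with R848, which was not called (adjusted p = 0.788) and became 0.62 after centring.

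The largest rise in complex I with polyU was that of Ndufs5, an accessory subunit of low value and shared sequence (68.9% unique windows). It had 2.75 and 3.71 CPM in vehicle, 5.68 and 5.81 with polyU, 4.17 and 2.83 with PNPi+dG/rG, 4.32 and 3.59 with the combination and 2.18 and 2.82 with R848. Both polyU libraries were above all others, and vehicle overlapped each of the remaining groups. The rise was 0.85 (SE 0.23, adjusted p = 0.00899) in log2, a call lost without vehicle replicate 1 (adjusted p = 0.102) or polyU replicate 2 (adjusted p = 0.0542).

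Ndufb10, an accessory subunit of the membrane arm, fell most with R848 in complex I. It had 46.1 and 49.8 CPM in vehicle, 54.04 and 59.6 with polyU, 47.1 and 46.6 with PNPi+dG/rG, 43.7 and 46.1 with the combination and 26.3 and 28.5 with R848. The R848 libraries were below every other library. The log2 fold change with R848 was -0.81 (SE 0.07, adjusted p = 4.00e-08), and it kept its sign after centring at -0.21. Ndufb11, also of the membrane arm and encoded on the X chromosome, differed most in complex I between the combination (39.2 and 43.6 CPM) and R848 (18 and 21.1 CPM). Its log2 fold change there was 1.08 (SE 0.09, adjusted p = 2.41e-08), or 0.70 after centring.

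Ndufv3, an accessory subunit of the NADH-binding module, was 1 of the 2 members of complex I called lower with the combination. It had 40.7 and 44.05 CPM in vehicle, 43.5 and 46.9 with polyU, 46.2 and 38.9 with PNPi+dG/rG, 33.5 and 31.7 with the combination and 31.8 and 34.3 with R848. The combination and R848 libraries overlapped each other and were below all of vehicle, polyU and PNPi+dG/rG. Against vehicle the combination gave -0.38 (SE 0.09, adjusted p = 0.00106) in CPM, but -0.17 after centring, which was not called. Against polyU it gave -0.47 (SE 0.09, adjusted p = 1.97e-04), the largest called fall of complex I in that comparison, or -0.22 after centring. The other fall in complex I was that of Ndufa10, at -0.21 (SE 0.07, adjusted p = 0.0124), or 0.00 after centring.

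Complex II is succinate dehydrogenase, shared by the respiratory chain and the tricarboxylic acid cycle. Sdha, its flavin subunit, where succinate is oxidised, had 236 and 248 CPM in vehicle, 252 and 253 with polyU, 248 and 244 with PNPi+dG/rG, 217 and 228 with the combination and 174 and 179 with R848. Vehicle, polyU and PNPi+dG/rG libraries lay close together, those of the combination were lower and those of R848 lowest. The log2 fold change with polyU was 0.06 and was not called (adjusted p = 0.3). With the combination it was -0.12 (SE 0.04, adjusted p = 0.0263) in CPM but 0.09 after centring. That call was also lost without vehicle replicate 2 (adjusted p = 0.185) or combination replicate 1 (adjusted p = 0.197), and with upper-quartile scaling (adjusted p = 0.99), plain eBayes (adjusted p = 0.067) or only the groups compared (adjusted p = 0.0524). With R848, Sdha was -0.45 (SE 0.04, adjusted p = 1.25e-07) in CPM, but 0.14 after centring.

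Sdhb (ENSMUSG00000009863, chr4:140961203-140979193), which carries the iron-sulfur clusters of complex II, had 107 and 122 CPM in vehicle, 150 and 155 with polyU, 120 and 118 with PNPi+dG/rG, 127 and 122 with the combination and 68.2 and 70.8 with R848. The polyU libraries were the highest and the R848 libraries the lowest, without overlap, while the other groups lay between. Sdhb rose with polyU by 0.42 (SE 0.06, adjusted p = 4.07e-05), the largest rise of complex II. With the combination it was 0.13 and was not called (adjusted p = 0.0705), but 0.34 after centring. The combination was lower than polyU by 0.29 (adjusted p = 4.69e-04), or -0.04 after centring, where it was not called. R848 gave -0.72 (SE 0.06, adjusted p = 1.38e-08) in CPM and -0.12 after centring, where it was not called. The combination exceeded R848 by 0.84 (SE 0.06, adjusted p = 4.67e-09), or 0.46 after centring.

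Sdhc and Sdhd encode the membrane anchors that bind ubiquinone. Sdhc had 123 and 132 CPM in vehicle, 145 and 158 with polyU, 136 and 126 with PNPi+dG/rG, 131 and 132 with the combination and 82.3 and 88.2 with R848. Sdhd had 82.7 and 83.8 CPM in vehicle, 90.6 and 96.5 with polyU, 85.7 and 84.8 with PNPi+dG/rG, 75.7 and 82.7 with the combination and 48.1 and 52.6 with R848. For both, the R848 libraries lay far below all others and the polyU libraries were the highest. With polyU, Sdhc was 0.25 (SE 0.06, adjusted p = 0.00407), a call lost without vehicle replicate 1 (adjusted p = 0.0545) or polyU replicate 2 (adjusted p = 0.0618). Sdhd was 0.17 (adjusted p = 0.043), a call lost without vehicle replicate 1 (adjusted p = 0.147), vehicle replicate 2 (adjusted p = 0.0958), polyU replicate 2 (adjusted p = 0.251), PNPi+dG/rG replicate 1 (adjusted p = 0.0613) or PNPi+dG/rG replicate 2 (adjusted p = 0.0609), and with no filter (adjusted p = 0.0982), plain eBayes (adjusted p = 0.103) or only the groups compared (adjusted p = 0.0575), and also after centring. With R848, Sdhc was -0.58 (adjusted p = 2.02e-07) in CPM and 0.01 after centring. Sdhd was -0.73 (adjusted p = 2.12e-08) in CPM, the largest fall of complex II, and -0.13 after centring, where it was not called.

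Complex III carries electrons through its Rieske iron-sulfur protein to cytochrome c1 and on to cytochrome c. Cyc1 (ENSMUSG00000022551, chr15:76343523-76346260), which encodes cytochrome c1, had 85.8 and 89.3 CPM in vehicle, 114 and 121 with polyU, 92.3 and 86.97 with PNPi+dG/rG, 97.2 and 109 with the combination and 64.5 and 68.5 with R848. The polyU libraries were the highest, those of the combination next, and those of R848 the lowest, with no overlap between these groups and vehicle. Cyc1 was 0.42 (SE 0.06, adjusted p = 6.91e-05) in log2 with polyU and 0.23 (SE 0.06, adjusted p = 0.00401) with the combination, or 0.44 after centring. The CPM call for the combination was lost without combination replicate 2 (adjusted p = 0.0749). R848 gave -0.40 (adjusted p = 2.38e-05) in CPM, but 0.20 after centring.

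Uqcrfs1, the Rieske protein, had 72.6 and 74.6 CPM in vehicle, 76.3 and 83.2 with polyU, 76.2 and 77.1 with PNPi+dG/rG, 80.3 and 78.8 with the combination and 53.5 and 57.4 with R848. The R848 libraries lay below all others, and the other 4 groups close together. Neither polyU (0.11, adjusted p = 0.14) nor the combination (0.11, adjusted p = 0.102) was called, though after centring the combination was 0.32. For Uqcrfs1, R848 gave -0.41 (SE 0.06, adjusted p = 9.28e-06) in CPM, but 0.19 after centring.

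Uqcrh, the hinge protein that helps cytochrome c1 bind cytochrome c, had 37.4 and 41.9 CPM in vehicle and 52.05 and 57.9 with polyU, and its rise of 0.47 (SE 0.09, adjusted p = 9.01e-04) was the largest of complex III there. Uqcrb, a small subunit next to cytochrome b with 56.6% unique windows, had 11.4 and 15.2 CPM in vehicle, 17.7 and 17.96 with polyU, 12.8 and 11.3 with PNPi+dG/rG, 19.8 and 20.8 with the combination and 10.2 and 12.1 with R848. The combination libraries were above all others and the polyU libraries next. Its log2 fold change was 0.62 (SE 0.13, adjusted p = 6.55e-04) with the combination against vehicle, or 0.83 after centring, and 0.86 (SE 0.13, adjusted p = 2.89e-05) against R848, or 0.48 after centring. Uqcr11, the smallest subunit, had 26.8 and 28.8 CPM in vehicle and 18.1 and 17.4 with R848. Its fall with R848 was -0.65 (SE 0.08, adjusted p = 2.53e-06) in CPM, or -0.05 after centring, where it was not called.

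In complex IV, the catalytic subunits are encoded by mitochondrial DNA, and the members are the nuclear subunits around them. Cox5a, a regulatory subunit, had 94.9 and 109 CPM in vehicle, 116 and 120 with polyU, 106 and 99.5 with PNPi+dG/rG, 108 and 114 with the combination and 72.5 and 73.6 with R848. The polyU libraries were the highest and the R848 libraries the lowest, while the combination overlapped vehicle. Cox5a rose with polyU by 0.21 (SE 0.06, adjusted p = 0.013), a call lost without vehicle replicate 1 (adjusted p = 0.196) or polyU replicate 2 (adjusted p = 0.0882), and with plain eBayes (adjusted p = 0.0682). For Cox5a, R848 gave -0.48 (adjusted p = 3.75e-06) in CPM, but 0.12 after centring.

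Cox7a2, the form of its subunit made in most tissues, had 51.7 and 61.4 CPM in vehicle, 79.8 and 84.4 with polyU, 64.7 and 60 with PNPi+dG/rG, 73.4 and 79.6 with the combination and 53.1 and 52.5 with R848. The R848 libraries overlapped vehicle, and those of polyU and the combination were above every other library. The rise with polyU, 0.54 (SE 0.08, adjusted p = 3.90e-05), was the largest of complex IV. Cox7a2l, a related protein that joins complex III to complex IV in supercomplexes, had 44.3 and 42.6 CPM in vehicle, 46.5 and 45.9 with polyU, 45.4 and 42.7 with PNPi+dG/rG, 46.1 and 50.8 with the combination and 36.3 and 37.8 with R848. It was not called with polyU (0.09, adjusted p = 0.339) or the combination (0.15, adjusted p = 0.0555, or 0.37 after centring). With R848 it was -0.23 (SE 0.07, adjusted p = 0.00545) in CPM, but 0.36 after centring. The muscle forms Cox7a1 and Cox6a2 stood at 2.00 and 2.23 CPM per kb in vehicle and were called in none of the comparisons with vehicle in CPM by limma, though after centring Cox6a2 was higher with R848, by 0.88. Cox7c, of low value and 47.05% unique windows, had 1.74 and 2.13 CPM in vehicle and 4.46 and 3.10 with the combination, a rise of 0.95 (SE 0.26, adjusted p = 0.00446), or 1.16 after centring, whose CPM call was lost without combination replicate 1 (adjusted p = 0.0633).

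Ndufa4 (ENSMUSG00000029632, chr6:11900292-11907497) had 54.5 and 58.7 CPM in vehicle, 66.6 and 73.7 with polyU, 59.3 and 52.1 with PNPi+dG/rG, 67.2 and 70.3 with the combination and 35.2 and 36.7 with R848. The R848 libraries were below all others, and those of polyU and the combination above vehicle. The log2 fold change was 0.31 (SE 0.07, adjusted p = 0.00367) with polyU, a call lost without polyU replicate 2 (adjusted p = 0.057). With the combination it was 0.28 (SE 0.07, adjusted p = 0.00329), or 0.49 after centring. With R848 it was -0.65 (SE 0.07, adjusted p = 6.42e-07) in CPM, the largest fall of complex IV, and -0.06 after centring, where it was not called. The combination exceeded R848 by 0.94 (SE 0.07, adjusted p = 1.97e-08), or 0.55 after centring.

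AA467197, also called Nmes1, encodes a paralogue of NDUFA4 that can take its place in complex IV, and lies outside the symbols of the rule. It had 2.08 and 1.97 CPM in vehicle, 1.65 and 2.79 with polyU, 1.90 and 1.76 with PNPi+dG/rG, 12.7 and 13.8 with the combination and 47 and 47.7 with R848. The R848 libraries were far above those of the combination, which were far above the other groups, without overlap. In log2 this was 4.55 (SE 0.20, adjusted p = 5.81e-12) with R848 and 2.71 (SE 0.20, adjusted p = 7.58e-09) with the combination, and 5.15 and 2.92 after centring. The combination was below R848 by 1.84 (adjusted p = 8.79e-07), or 2.22 after centring. With polyU it was 0.09 and not called (adjusted p = 0.784).

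The pair can be compared per length. Ndufa4 stood at 89.4 and 96.2 CPM per kb in vehicle, 109 and 121 with polyU, 97.2 and 85.4 with PNPi+dG/rG, 110 and 115 with the combination and 57.7 and 60.2 with R848. AA467197 stood at 2.62 and 2.48 CPM per kb in vehicle, 2.08 and 3.52 with polyU, 2.40 and 2.23 with PNPi+dG/rG, 16 and 17.4 with the combination and 59.3 and 60.3 with R848. In the sum of both per kb, the share of AA467197 was 2.85% and 2.51% in vehicle, 1.87% and 2.83% with polyU, 2.41% and 2.54% with PNPi+dG/rG, 12.7% and 13.1% with the combination and 50.7% and 50.02% with R848. A ratio within a library does not depend on its scaling. The paralogue took about the same share as Ndufa4 in both R848 libraries, and a far smaller one in vehicle, polyU and PNPi+dG/rG.

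ATP synthase has a catalytic head, a stalk and a membrane ring. Atp5b (ENSMUSG00000025393, chr10:128083273-128090391), the catalytic beta subunit, had 750 and 771 CPM in vehicle, 880 and 893 with polyU, 786 and 772 with PNPi+dG/rG, 854 and 855 with the combination and 691 and 709 with R848. The polyU libraries were the highest, the combination libraries next and the R848 libraries the lowest, with no overlap with vehicle. The log2 fold change was 0.22 (SE 0.04, adjusted p = 1.34e-04) with polyU and 0.17 (SE 0.04, adjusted p = 5.43e-04) with the combination, or 0.38 after centring. With R848 it was -0.12 (SE 0.04, adjusted p = 0.00547) in CPM, smaller than the fall of the median gene, and 0.47 after centring.

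Of the genes of subunit c, which forms the ring, Atp5g3 had 114 and 130 CPM in vehicle, 140 and 152 with polyU, 135 and 121 with PNPi+dG/rG, 137 and 129 with the combination and 95.4 and 102 with R848. The R848 libraries were the lowest, and vehicle overlapped PNPi+dG/rG and the combination. With polyU it was 0.27 (SE 0.07, adjusted p = 0.0095), a call lost without vehicle replicate 1 (adjusted p = 0.116) or polyU replicate 2 (adjusted p = 0.0993), and with plain eBayes (adjusted p = 0.0672). With R848 it was -0.30 (adjusted p = 0.00172) in CPM, but 0.30 after centring. Atp5g2 had 1.63 and 1.07 CPM in vehicle, 1.02 and 1.34 with polyU, 1.17 and 1.20 with PNPi+dG/rG, 0.849 and 0.563 with the combination and 0.796 and 0.796 with R848. The combination and R848 libraries were the lowest. The combination gave -0.93 (SE 0.38, adjusted p = 0.0386) against vehicle, a call lost without vehicle replicate 1 (adjusted p = 0.243), PNPi+dG/rG replicate 1 (adjusted p = 0.0597), PNPi+dG/rG replicate 2 (adjusted p = 0.0608) or combination replicate 2 (adjusted p = 0.205), and with no filter (adjusted p = 0.0763), upper-quartile scaling (adjusted p = 0.07), only the groups compared (adjusted p = 0.0825) or voom (adjusted p = 0.0589), and also after centring (-0.72). Atp5g1 had 1.46 and 3.09 CPM in vehicle and between 1.13 and 2.50 CPM in the other groups, and was called in none of the 4 comparisons with vehicle.

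Atp5h, a subunit of the peripheral stalk with 52.1% unique windows, rose most in complex V with polyU. It had 21.9 and 21.5 CPM in vehicle, 31.9 and 34.2 with polyU, 24.5 and 24.3 with PNPi+dG/rG, 28.7 and 28.8 with the combination and 17.3 and 18.9 with R848. Highest were the polyU libraries, then those of the combination, and R848 was lowest. Atp5h was 0.61 (SE 0.08, adjusted p = 2.05e-05) in log2 with polyU and 0.40 (SE 0.08, adjusted p = 3.22e-04) with the combination, or 0.61 after centring. Atp5l rose with the combination from 2.64 and 2.08 to 2.97 and 4.36 CPM, by 0.62 (SE 0.24, adjusted p = 0.0287), or 0.83 after centring, a CPM call lost without vehicle replicate 2 (adjusted p = 0.176) or combination replicate 2 (adjusted p = 0.268), and with no filter (adjusted p = 0.0606) or only the groups compared (adjusted p = 0.0563). Atp5k, subunit e of the membrane part, had 40.6 and 44.98 CPM with polyU and 34.3 and 34.8 with the combination. It was the largest called fall of complex V between them, -0.31 (SE 0.12, adjusted p = 0.0398) in CPM and -0.05 after centring, where it was not called. That call was also lost without polyU replicate 1 (adjusted p = 0.0548), polyU replicate 2 (adjusted p = 0.213), combination replicate 1 (adjusted p = 0.135) or combination replicate 2 (adjusted p = 0.117), and with no filter (adjusted p = 0.0773), upper-quartile scaling (adjusted p = 0.208) or plain eBayes (adjusted p = 0.112).

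Atp5s, factor B of ATP synthase, had 4.04 and 4.66 CPM in vehicle, 3.75 and 4.13 with polyU, 4.71 and 5.08 with PNPi+dG/rG, 3.89 and 3.87 with the combination and 1.81 and 1.65 with R848. The R848 libraries were far below all others, which lay between 3.75 and 5.08 CPM. For R848 the difference was -1.33 (SE 0.19, adjusted p = 6.76e-06) in CPM and -0.73 after centring, where it was still called. The combination exceeded R848 by 1.17 (SE 0.19, adjusted p = 4.16e-05), or 0.78 after centring.

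**Figure D4:**
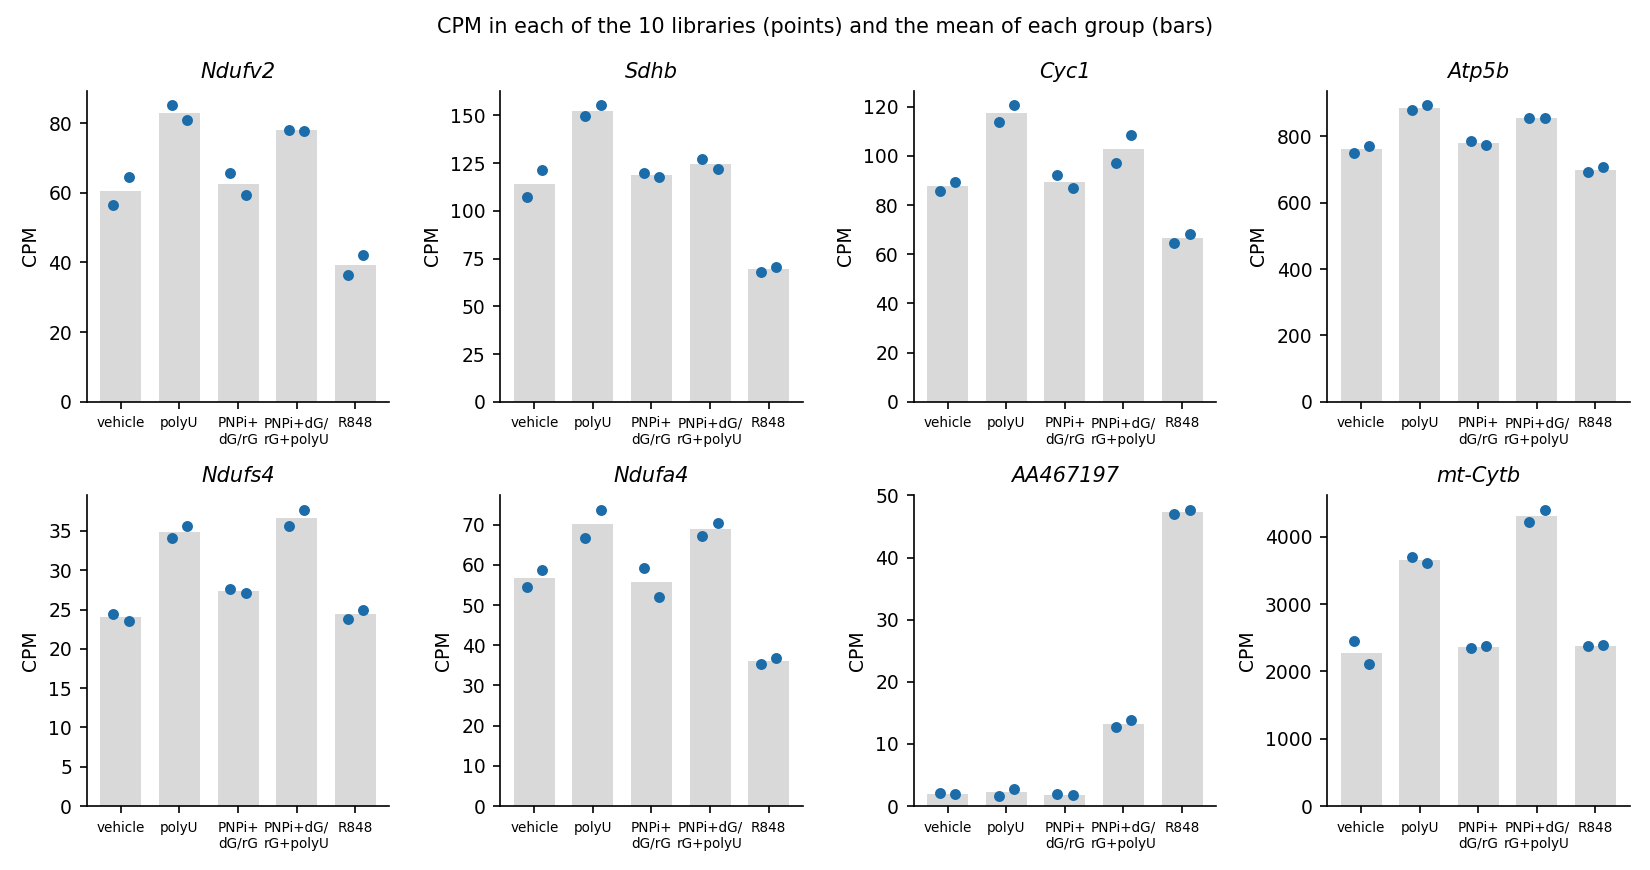
Points are CPM in each of the 10 libraries and bars are group means, for 6 members, the paralogue AA467197 and the mitochondrial gene mt-Cytb. Ndufa4 lies at 35.2 and 36.7 CPM with R848, below every other library, where AA467197 reaches 47 and 47.7 CPM; after centring, Ndufa4 with R848 differs from vehicle by -0.06 and is not called.

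In CPM, the calls by limma in the comparisons with vehicle fell into few patterns. Of the 78 members, 32 were higher with polyU and the combination and lower with R848 in CPM, and 22 were higher with polyU and lower with R848 in CPM without a call in the combination. A further 5, Cox6c, Cox7a2, Ndufb3, Ndufs4 and Uqcrb, were higher with polyU and the combination and not called with R848. The 7 that were called only with R848, all lower in CPM, were Atp5d, Atp5s, Cox5b, Cox6a1, Cox6b1, Cox7a2l and Uqcrfs1. The patterns were not counted over all genes tested. Of those genes, 20.6% were higher with polyU, 22.2% higher with the combination and 62.9% lower with R848. After centring, 33.2% were higher with the combination and 43.0% with R848. These patterns depend on the scale: after centring 65 of the 78 were higher with the combination and 44 with R848, and of the 7, Cox5b, Cox6a1, Cox6b1, Cox7a2l and Uqcrfs1 were higher with the combination.

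The members lie on 19 chromosomes, with 3 on the X chromosome, Ndufa1, Ndufb11 and Cox7b, none on mitochondrial DNA and at most 8 on a single chromosome. Mitochondrial DNA itself encodes 13 subunits of complexes I, III, IV and V. Of these, 7 were tested. mt-Nd4l, mt-Co2, mt-Co3, mt-Atp6 and mt-Atp8 were listed at 0 in all 10 libraries, and mt-Nd3 reached at most 0.17 CPM. With polyU and with the combination, 4 of the 7 were higher, mt-Nd1, mt-Nd4, mt-Cytb and mt-Co1. The shares of all genes called higher were 20.6% and 22.2%. After centring, 3 of the 7 were higher with polyU and 5 with the combination, where 17.2% and 33.2% of all genes were higher. With R848, 0 were called in CPM by limma, with 0 at an unadjusted p under 0.05 and 0 by voom. Of all genes, limma called 19.2% higher and 62.9% lower there. After centring all 7 were higher, with a median of 0.66, where 43.0% of all genes were higher.

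mt-Cytb, the cytochrome b of complex III, had 2450 and 2107 CPM in vehicle, 3691 and 3612 with polyU, 2351 and 2376 with PNPi+dG/rG, 4224 and 4402 with the combination and 2370 and 2396 with R848. The combination libraries were the highest and those of polyU next, and the other 3 groups overlapped. It was 0.68 (SE 0.05, adjusted p = 6.03e-07) in log2 with polyU and 0.92 (SE 0.05, adjusted p = 5.53e-09) with the combination, or 1.14 after centring. mt-Nd4, a proton-pumping subunit of complex I, was 0.66 (SE 0.08, adjusted p = 4.03e-04) and 0.77 (SE 0.08, adjusted p = 5.23e-05), the last 0.98 after centring. The 8 not listed at 0 throughout summed to 15720 and 12570 CPM in vehicle, 19220 and 17850 with polyU, 14050 and 14910 with PNPi+dG/rG, 19850 and 20490 with the combination and 14710 and 14480 with R848. The 5 others may be at 0 because of how reads were counted, which was not tested, so the sum is not a level of all 13.

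Of the subunits that the symbols of the rule miss, Cox4i1, the main form of subunit 4 of complex IV, had 193 and 209 CPM in vehicle, 229 and 255 with polyU, 207 and 198 with PNPi+dG/rG, 214 and 220 with the combination and 146 and 158 with R848. It was 0.27 (SE 0.06, adjusted p = 0.00194) with polyU, 0.11 with the combination, which was not called but became 0.32 after centring, and -0.41 (SE 0.06, adjusted p = 9.94e-06) with R848 in CPM, but 0.19 after centring. Cycs, somatic cytochrome c, lay between 1.35 and 2.71 CPM and was not called in CPM, but with R848 its 0.46 (adjusted p = 0.141) became 1.06 after centring and was called. Cox4i2, the lung form, reached at most 0.159 CPM, and Cyct, the testis form of cytochrome c, was listed at 0.

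Assembly factors bring subunits and cofactors together and are not part of the finished complexes. Of 15 for complex I, 6 were higher with polyU, 2 higher and 7 lower with the combination, and all 15 lower with R848, with a median of -0.92 in CPM. Of all genes, 20.6% were higher with polyU, 22.2% higher and 46.7% lower with the combination and 62.9% lower with R848, so the share lower with the combination, 7 of 15, was that of all genes. After centring, 3 were higher and 5 lower with the combination, and 1 higher and 8 lower with R848, with a median of -0.33. Of all genes, 33.2% were then higher and 33.2% lower with the combination, and 43.0% and 34.65% with R848. These centred shares also stand beside the centred counts of the lists below. Ndufaf7, a methyltransferase needed to build complex I, had 16.2 and 18.3 CPM in vehicle, 14.2 and 13.5 with polyU, 17.3 and 17.4 with PNPi+dG/rG, 8.14 and 6.68 with the combination and 1.81 and 2.57 with R848. The R848 libraries were the lowest and those of the combination next, without overlap with the rest. Against vehicle, R848 gave -2.99 (SE 0.16, adjusted p = 5.75e-11), or -2.40 after centring. Tmem126b, which helps build the membrane arm, had 28.1 and 27.1 CPM in vehicle, 28.4 and 29.6 with polyU, 27.4 and 24.97 with PNPi+dG/rG, 14.3 and 13.4 with the combination and 7.06 and 7.50 with R848. It too was lowest with R848 and next lowest with the combination, at -1.92 (SE 0.09, adjusted p = 1.27e-11) and -0.997 (SE 0.09, adjusted p = 8.66e-08) in log2. After centring these were -1.33 and -0.79. The centred median of the 35 subunits of complex I with R848, 0.21, had the opposite sign.

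Of the 4 assembly factors of complex II, 1 was higher with polyU, Sdhaf1, and 2 were lower with the combination, Sdhaf1 and Sdhaf2, at -0.37 and -0.23 in CPM but -0.16 and -0.02 after centring, where neither was called. With R848, 3 were lower in CPM, Sdhaf1, Sdhaf2 and Sdhaf4, of which Sdhaf2 was higher by 0.27 after centring. These counts stand beside 20.6% of all genes higher with polyU, 46.7% lower with the combination and 62.9% lower with R848. Sdhaf1, which helps insert iron-sulfur clusters into Sdhb, had 10.4 and 10 CPM in vehicle and 4.67 and 4.32 with R848. Its log2 fold change was -1.19 (SE 0.13, adjusted p = 2.81e-07), or -0.59 after centring, and that of Sdhaf4, which acts on Sdha, was -0.90 (SE 0.16, adjusted p = 1.06e-04), or -0.31 after centring, where it was not called.

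Of the 6 for complex III, 1 was higher with polyU, Uqcc2. With the combination, 2 were higher, Ttc19 and Uqcc2, and 3 lower, Bcs1l, Uqcc1 and Uqcc3. Among all genes tested, 20.6% were higher with polyU, 22.2% higher and 46.7% lower with the combination, and 19.2% and 62.9% with R848. With R848, Ttc19 was higher, by 0.60 (SE 0.10, adjusted p = 7.12e-05), or 1.20 after centring, and 4 were lower in CPM, Bcs1l, Lyrm7, Uqcc1 and Uqcc3. Centred counts were 2 higher and 3 lower with R848 and unchanged with the combination. Bcs1l, which puts the Rieske protein in place, had 12.6 and 10.8 CPM in vehicle and 3.88 and 4.04 with R848, at -1.56 (SE 0.14, adjusted p = 3.55e-08), or -0.97 after centring. Lyrm7, its helper, was -1.34 (SE 0.44, adjusted p = 0.0107), or -0.74 after centring, where it was not called.

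Of the 21 assembly factors of complex IV, 20 were tested, and Pet117 was listed at 0. With polyU 7 were higher and 1 lower, Lrpprc, and with the combination 4 higher and 6 lower, or 11 higher and 3 lower after centring. The shares of all genes higher and lower were 20.6% and 18.7% with polyU, and 22.2% and 46.7% with the combination. With R848, 13 of 20 were lower in CPM, as were 62.9% of all genes (median -0.47), with 8 higher and 7 lower after centring (median 0.12). Coa6, which handles copper, was -1.31 (SE 0.12, adjusted p = 5.30e-08) with R848, or -0.71 after centring, and Taco1, which activates translation of mt-Co1, was -1.11 (SE 0.13, adjusted p = 1.11e-06), or -0.51. Of the 3 for complex V, Tmem70 was higher with polyU, a call lost after centring, Atpaf1 and Atpaf2 were lower with the combination in CPM (-0.71 and -0.28) but not called after centring (-0.50 and -0.07), and all 3 were lower with R848 in CPM. Atpaf1, a chaperone of the beta subunit, was -1.45 (SE 0.25, adjusted p = 5.81e-05), or -0.85 after centring. Atpaf2 was -0.47 and Tmem70 -0.28 in CPM, but 0.13 and 0.31 after centring.

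The tricarboxylic acid cycle supplies NADH and succinate to the chain. Of its 13 genes, 6 were higher and 2 lower with polyU, the 2 being Cs and Ogdh. The shares of all genes higher and lower were 20.6% and 18.7% there, and 22.2% and 46.7% with the combination. With the combination, Dld alone was higher, by 0.48 (SE 0.05, adjusted p = 3.36e-07), or 0.69 after centring, and 4 were lower, Cs, Idh3a, Mdh2 and Ogdh, although after centring 7 were higher and 3 lower. With R848, where 62.9% of all genes were lower and 19.2% higher, 11 were lower in CPM and Dld was higher, by 0.46 (SE 0.05, adjusted p = 2.59e-07), or 1.06 when centred, but after centring 6 were higher and 3 lower. The largest falls with R848 were those of Suclg2, a subunit of succinyl-CoA ligase, at -1.11 (SE 0.10, adjusted p = 3.67e-08), and Fh1, fumarate hydratase, at -0.89 (SE 0.07, adjusted p = 3.49e-09). They were -0.52 and -0.30 after centring.

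Ubiquinone, or coenzyme Q, is made by a separate set of enzymes. Of its 13 genes, limma called only Coq8a with polyU, by 1.11 (SE 0.19, adjusted p = 2.16e-04), with 3 higher at an unadjusted p under 0.05 and 2 by voom. By limma, 20.6% of all genes were higher with polyU. With the combination, Coq8a and Coq10b were higher and 6 were lower, near the 22.2% and 46.7% of all genes, although after centring 3 were higher and 1 lower. Coq8a, a kinase-like regulator, had 3.03 and 2.64 CPM in vehicle, 5.51 and 6.74 with polyU, 3.44 and 3.48 with PNPi+dG/rG, 9.77 and 11.6 with the combination and 2.60 and 3.25 with R848. The combination libraries were the highest, then those of polyU, without overlap with the other groups. With R848, 11 were lower and Coq10b was higher in CPM (62.9% and 19.2% of all genes), with 2 higher and 6 lower after centring. Coq10a and Coq10b both encode proteins that bind coenzyme Q, and they moved apart: Coq10a was -2.19 (SE 0.10, adjusted p = 4.88e-12) and Coq10b 0.93 (SE 0.09, adjusted p = 8.96e-08) with R848, or -1.59 and 1.52 after centring.

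Of 12 regulators of mitochondrial biogenesis, 11 were tested, and Ppargc1a reached at most 0.169 CPM. With polyU, Esrra was higher and Pprc1 lower. The shares of all genes higher and lower were 20.6% and 18.7% there, and 22.2% and 46.7% with the combination. With the combination, Nrf1, Gabpb1 and Esrra were higher and 4 lower, Ppargc1b, Pprc1, Polrmt and Yy1, or 4 higher and 3 lower after centring. With R848, Gabpb1, Esrra and Yy1 were higher, and Ppargc1b, Polrmt, Tfam and Tfb1m were lower in CPM, where 62.9% of all genes were lower, while after centring 6 were higher and 2 lower. Ppargc1b, a coactivator of mitochondrial genes, had 5.33 and 5.67 CPM in vehicle, 6.31 and 6.39 with polyU, 5.03 and 5.05 with PNPi+dG/rG, 3.19 and 2.88 with the combination and 0.956 and 0.827 with R848. It was lowest with R848 and next lowest with the combination, at -2.63 (SE 0.19, adjusted p = 2.15e-09) and -0.86 (SE 0.19, adjusted p = 7.45e-04), or -2.03 and -0.65 after centring. Polrmt, the RNA polymerase of mitochondria, was -0.86 (SE 0.08, adjusted p = 7.35e-08) with R848, or -0.26 after centring.

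Of 6 genes of mitochondrial fusion and fission, Fis1 was higher and 3 lower with polyU, Mfn2, Opa1 and Dnm1l. The shares of all genes higher and lower were 20.6% and 18.7% there, and 22.2% and 46.7% with the combination. With the combination, Fis1 and Mff were higher and Mfn2 and Opa1 lower, or 4 higher and 2 lower after centring. With R848, Dnm1l was higher and Mfn2, Opa1 and Fis1 were lower in CPM, where 62.9% of all genes were lower. After centring, however, all 6 were higher, where 43.0% of all genes were higher. Opa1, which fuses inner membranes, was -0.43 (SE 0.05, adjusted p = 1.67e-06) with R848 in CPM but 0.17 after centring, and Mfn2, which fuses outer membranes, was -0.40 (SE 0.06, adjusted p = 2.38e-05) with the combination, or -0.19 after centring.

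The cells were macrophages by their markers, with 10 of 10 tested and Lyz2 the most abundant at a mean of 9852 CPM. With polyU 4 were higher and 4 lower (20.6% and 18.7% of all genes). With the combination 4 were higher and 6 lower (22.2% and 46.7% of all genes). With R848 1 was higher and 7 lower in CPM, where 62.9% of all genes were lower, or 6 higher and 4 lower after centring. Their summed level was 19790 and 20470 CPM in vehicle, 20370 and 19840 with polyU, 20730 and 20280 with PNPi+dG/rG, 17730 and 17730 with the combination and 15390 and 15850 with R848. Mertk, a receptor for dying cells, was -2.87 (SE 0.10, adjusted p = 2.43e-13) with R848, and Fcgr1, an antibody receptor, was -1.07 (SE 0.06, adjusted p = 8.34e-11), or -2.28 and -0.47 after centring.

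Markers of other cells also moved with the groups. Of 7 stromal and endothelial markers, all tested, 0 were called with polyU in limma, with 1 at an unadjusted p under 0.05, Dcn, and 0 by voom. Kdr was lower with PNPi+dG/rG, at 115 and 111 CPM. With the combination 2 markers were higher and 1 lower (22.2% and 46.7% of all genes). With R848 4 were higher and 1 lower (19.2% and 62.9% of all genes). By voom, the markers gave 1 higher and 1 lower with the combination and 5 higher and 1 lower with R848. Their summed level was 158 and 149 CPM in vehicle, 146 and 158 with polyU, 117 and 114 with PNPi+dG/rG, 94.6 and 99.1 with the combination and 152 and 163 with R848. Kdr, the most abundant at a mean of 105 CPM, had 156 and 146 CPM in vehicle, 89.2 and 92.9 with the combination and 18.5 and 21.1 with R848. Col1a1 had 0.112 and 0.393 CPM in vehicle and 51.6 and 58.3 with R848, and Pdgfrb had 0.112 and 0.169 and 36.8 and 39.1, with 3.19 and 4.29 in the combination. Dcn, at 2.28 and 1.62 CPM with R848, was also called higher there and with the combination. Pecam1, at 1.06 and 1.07 CPM, was called higher with R848. For both genes the R848 values alone met the filter, so it could admit them through the rise then called. The log2 fold change of Dcn with R848, 9.66 (SE 2.26), also depends on the offset added to values near 0. Its size is therefore not a measured fold. None of the 7 was at 0 in all libraries. The part of such cells in the differences of the respiratory chain genes was not tested.

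Of 7 neutrophil markers, 3 were tested, and Ly6g was listed at 0. S100a8, the most abundant, had 1.57 and 2.02 CPM in vehicle, 5.38 and 3.80 with the combination and 21.03 and 23.4 with R848. Camp had 0.849 and 0.563 and 1.91 and 1.81 CPM with the last 2 groups. Both genes were called higher in each, and S100a9 was called lower with R848. Of all genes, 22.2% were higher with the combination, and 19.2% were higher and 62.9% lower with R848. The R848 values of Camp alone met the filter, so it could admit Camp through the rise then called. With R848, the log2 fold change was 9.61 (SE 2.72) for Camp and -9.15 (SE 2.81) for S100a9. Both sizes depend on the offset added to values near 0, so they are not measured folds. The 7 summed to 3.54 and 4.61 CPM in vehicle, 5.57 and 3.89 with polyU, 3.62 and 3.48 with PNPi+dG/rG, 8.85 and 8.23 with the combination and 22.99 and 25.2 with R848. Of 6 dendritic cell markers, only Ccr9 was tested, and Xcr1 was listed at 0. Ccr9 was called higher with the combination and with R848, as were 22.2% and 19.2% of all genes. The 6 summed to 0.281 and 0.562 CPM in vehicle, 0.455 and 0.639 with polyU, 0.417 and 0.321 with PNPi+dG/rG. They summed to 3.40 and 3.02 CPM with the combination and 3.77 and 3.21 with R848. Ccr9 could thus reach 1 CPM only in the 2 groups where it was then called, so the filter itself favoured these calls. None of 7 lymphocyte or 6 erythroid and mast cell markers passed the filter, with Cd3d and Cd3e listed at 0. Ms4a1 and Hba-a1 were their most abundant, at means of 0.0355 and 0.0531 CPM. The lymphocyte list summed to 0.449 and 0.169 CPM in vehicle, 0.114 and 0 with polyU, 0.234 and 0 with PNPi+dG/rG, 0 and 0 with the combination and 0.0531 and 0.153 with R848, and the erythroid and mast cell list to 0.168 and 0.337 CPM in vehicle, 0.171 and 0.232 with polyU, 0.182 and 0.214 with PNPi+dG/rG, 0.212 and 0.0703 with the combination and 0.106 and 0.0919 with R848. The part of these cells was not tested.

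Promoters of respiratory chain genes are known to bind the factors NRF1, GABP of the ETS family, and YY1. RefSeq windows on GRCm38.p6, from 250 bases before to 50 after the start of the gene, were found for 68 of the 83 symbols. Searched on both strands, CGCATGCG, the core of the NRF1 site, was in 9 of the 68 (13.2%), against 2.07% of 27025 genes and 4.56% of the 9218 genes tested with a window. CCGGAAG, an ETS site, was in 16 (23.5%), against 9.93% and 21.4%. AAGATGGC, a YY1 site, was in 10 (14.7%), against 3.19% and 5.67%. At least 1 of the 3 was in 29 of the 68 (42.65%), against 14.15% of all genes and 28.88% of those tested. A match is a description of letters, not a site shown to be bound.

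The following 4 windows were chosen after the values were seen, with matched letters in capitals. Atp5j, a stalk subunit of ATP synthase (chr16:84834927-84835226, minus strand), holds all 3 motifs. Cox6a1 (chr5:115348909-115349208, minus strand) holds the NRF1 and ETS letters and is the highest of complex IV per length. Uqcrc1, a core subunit of complex III (chr9:108936398-108936697, plus strand), holds the NRF1 letters. Ndufs4 (chr13:114388045-114388344, minus strand), the largest rise of complex I with the combination, holds the YY1 letters.
Atp5j: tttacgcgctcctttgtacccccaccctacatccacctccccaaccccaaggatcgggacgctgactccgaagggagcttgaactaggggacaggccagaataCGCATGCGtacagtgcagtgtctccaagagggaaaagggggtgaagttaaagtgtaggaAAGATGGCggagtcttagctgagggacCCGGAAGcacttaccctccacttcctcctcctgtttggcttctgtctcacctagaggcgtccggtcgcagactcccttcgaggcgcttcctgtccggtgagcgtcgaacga
Cox6a1: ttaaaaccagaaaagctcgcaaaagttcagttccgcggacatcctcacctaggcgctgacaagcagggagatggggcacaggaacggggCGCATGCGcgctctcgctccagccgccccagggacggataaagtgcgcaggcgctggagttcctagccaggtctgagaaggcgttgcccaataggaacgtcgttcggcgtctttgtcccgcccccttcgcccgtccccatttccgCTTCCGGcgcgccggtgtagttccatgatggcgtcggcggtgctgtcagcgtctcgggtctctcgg
Uqcrc1: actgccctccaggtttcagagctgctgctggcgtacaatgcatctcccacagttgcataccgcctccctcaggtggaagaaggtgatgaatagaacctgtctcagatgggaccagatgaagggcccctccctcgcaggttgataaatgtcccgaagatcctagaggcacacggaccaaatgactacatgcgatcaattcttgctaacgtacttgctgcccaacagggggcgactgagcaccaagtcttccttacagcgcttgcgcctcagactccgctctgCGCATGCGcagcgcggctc
Ndufs4: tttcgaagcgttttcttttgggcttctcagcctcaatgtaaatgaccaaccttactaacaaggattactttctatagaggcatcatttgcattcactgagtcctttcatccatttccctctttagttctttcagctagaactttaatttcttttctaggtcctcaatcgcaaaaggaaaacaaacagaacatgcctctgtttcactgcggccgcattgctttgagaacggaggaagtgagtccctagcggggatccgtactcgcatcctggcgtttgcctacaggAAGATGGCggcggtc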

How the data were processed

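The authors deposited a table of normalized values in CPM with an offset of 0.0001 on each value, made from 1 × 50 base reads with bcl2fastq 2.19.1.403, STAR 2.27a and the Ensembl annotation of GRCm38 in Partek Flow. The counting rule for reads that fit several genes is not given in the sources used here. Libraries held 14128124 to 38392591 reads on genes, so 3 reads are 0.0781 to 0.212 CPM; floors cover counting error only.

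The 11978 genes that reached 1 CPM in 2 libraries or more were fitted with limma 3.58.1 in R 4.3.3 (statmod 1.5.0) on log2 of the deposited values, with no further pseudocount, all 10 libraries in 5 groups, eBayes with trend and robust, and Benjamini-Hochberg over all genes within a comparison. A gene was called at an adjusted p under 0.05; voom used reads recovered from the steps of low values. The fit was checked on simulated data. Python 3.11.15, pandas 2.3.3, numpy 2.4.6 and matplotlib 3.10.9 did the rest. Symbols and exons are those of GENCODE M21.

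Members and gene lists were chosen with earlier results of these data known. Named are members that missed the filter; complex II, Rieske, cytochrome c1, Cox5a, Cox7a2l, Ndufa4, Ndufa4l2, Atp5b, c-ring and core complex I genes, except that some results are not reported here; the largest called rise and fall per complex and comparison; up to 2 called members of each other list; and all where 5 or fewer are counted. Atpif1, Usmg5 and Ndufb1-ps were named after their values were seen. Lists cover complex I core genes, assembly factors of complexes I to V, subunits outside the rule, mitochondrial DNA-encoded subunits, the tricarboxylic acid cycle, coenzyme Q synthesis, biogenesis regulators, mitochondrial dynamics, and markers of macrophages, dendritic cells, neutrophils, lymphocytes, erythroid and mast cells, and stroma and endothelium. Alternatives were pseudocounts, filters, 2 scalings, plain eBayes, only the groups compared, the replicate block, voom, members with unique sequence, and leaving out each library.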

Additional observations from a re-analysis of the deposited data

Results flagged for a closer look

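The interaction, which compares what PNPi+dG/rG does beside polyU with what it does alone, was called lower for 27 of 78 members where 38.9% of all genes were, but after centring 7 were higher and 0 lower, and the largest called falls in complexes I, II, III and V were Ndufv3 at -0.47, Sdhb at -0.35, Uqcr11 at -0.38 and Atp5h at -0.37 (log2, CPM). After centring they were -0.19, -0.07, -0.09 and -0.08, and none was called. The call for Uqcr11 was also lost without vehicle replicate 1 (adjusted p = 0.0501), polyU replicate 2 (adjusted p = 0.0548) or combination replicate 1 (adjusted p = 0.0537), and with upper-quartile scaling (adjusted p = 0.106), and that for Atp5h with upper-quartile scaling.

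A gene that the choice by symbol drops, Ndufb1-ps, showed a difference with R848. It carries a pseudogene symbol and is annotated as a noncoding RNA, but it had 30.2 and 31.5 CPM in vehicle, 47.9 and 48.4 with polyU, 36.4 and 31.3 with PNPi+dG/rG, 57.9 and 57.97 with the combination and 47.2 and 50.2 with R848. The combination libraries were the highest, while vehicle and PNPi+dG/rG overlapped below the rest. Its log2 fold change was 0.66 with R848 (SE 0.07, adjusted p = 6.07e-07) and 0.91 (SE 0.07, adjusted p = 2.20e-08) with the combination, or 1.25 and 1.12 after centring. The 35 members of complex I had medians of -0.39 and 0.30 in CPM, and of 0.21 and 0.51 after centring. Ndufb1-ps was named after its values were seen.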

How the results depend on the processing

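Pseudocounts of 0.1 and 1 and a filter on the mean kept the direction and side of the threshold of all 94 single-gene results; so did the replicate block, with medians of 0.35 with polyU and -0.37 with R848, though replicate numbers are not paired (correlations of residuals -0.286 to 0.109, median -0.0230, over 8459 genes). Scaling mattered most. Centred on the median, members higher, lower and their median were 65, 0 and 0.42 for the combination, 44, 4 and 0.22 for R848, 17, 1 and 0.09 for the combination against polyU, 42, 2 and 0.23 against R848, and 7, 0 and 0.06 for the interaction. Of the 94, 29 reversed and 25 lost the call: Sdha 0.09 with the combination; with R848, Atp5b 0.47, Atp5g3 0.30, Cox5a 0.12, Cox7a2l 0.36, Cyc1 0.20, Ndufs1 0.12, Ndufs3 0.06, Ndufs7 0.05, Ndufs8 0.02, Ndufv1 0.27, Sdha 0.14, Sdhc 0.01 and Uqcrfs1 0.19; for the combination against polyU, Cyc1 0.06, Ndufs1 0.07, Ndufs8 0.03, Ndufv1 0.00, Sdha 0.07, Sdhc 0.06 and Sdhd 0.01, and against R848, Atp5b -0.09 and Sdha -0.05; for the interaction, Cyc1 0.06, Ndufs1 0.06, Ndufs8 0.02, Sdha 0.08, Sdhc 0.05 and Sdhd 0.01. Both scalings add the same shift to every gene of a comparison, which is why values reverse. On the upper quartile, the combination gave 1 lower and a median of 0.32, R848 5, 24 and -0.09, the combination against polyU 3, 4 and -0.04, against R848 a median of 0.45, and the interaction 3 lower and -0.09; 2 single genes reversed, with R848 (Atp5b 0.16, Cox7a2l 0.05), and 27 lost the call.

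Plain eBayes gave 2 lower with the combination and 14 in the interaction, and fitting only the groups compared gave 2 lower with the combination. Of the 94 single genes, 14 lost the call with plain eBayes, 10 with no filter and 5 with only the groups compared. With no filter on low values, R848 gave 1 higher, the combination against R848 1 lower and the interaction 14 lower. These counts also take in Cox6b2 and Ndufa4l2, which missed the filter but had reads. The cause of the changed counts was not tested. Leaving out a library, where the lone library is taken to vary like the others, the combination gave 2 to 5 lower, against polyU 18 to 33 lower, and the interaction 0 to 1 higher and 10 to 30 lower. Members with at least 90% unique sequence and voom were added after seeing the data. The former gave 23 higher with the combination and 47 against R848 of 50 members, which follows from fewer members. voom kept 93 of 94 single genes, all but Atp5g2 with the combination, and called 4984 genes with polyU (limma 4709), 233 with PNPi+dG/rG (96), 8225 with the combination (8254) and 9986 with R848 (9835). It used whole reads, as 100% of low values were multiples of a step within 0.1.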

Other observations

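Beside the subunits, ATP synthase has small partners with symbols of their own, and these were named after their values were seen. Atpif1 encodes the inhibitor that stops ATP synthase from running backwards. It had 114 and 116 CPM in vehicle, 147 and 160 with polyU, 122 and 114 with PNPi+dG/rG, 124 and 133 with the combination and 53.6 and 56.5 with R848. The polyU libraries were the highest and the R848 libraries the lowest, at less than 60 CPM where vehicle was above 110. The log2 fold change was 0.41 (SE 0.06, adjusted p = 4.22e-05) with polyU, 0.16 (SE 0.06, adjusted p = 0.0231) with the combination (0.37 after centring) and -1.06 (SE 0.06, adjusted p = 8.82e-11) with R848, and the last was -0.47 after centring. Usmg5, a small membrane subunit, had 1.35 and 1.91 CPM in vehicle, 2.273 and 2.73 with polyU, 2.84 and 1.47 with PNPi+dG/rG, 2.62 and 3.24 with the combination and 1.49 and 2.11 with R848 and was 0.86 (SE 0.32, adjusted p = 0.0276) with the combination, or 1.07 after centring.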
